A study of Danio rerio with 17 samples.

Results

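Tripartite motif (TRIM) genes were followed across the midbrains of 17 zebrafish, together with 2 groups of relatives that are expanded in fish, the finTRIM genes (ftr) and the bloodthirsty-related genes (btr). Members were all features whose Ensembl zebrafish symbol, in any case, starts with trim or btr, or with ftr and a digit. This gave 72 of the 15648 features that name a gene. They carry 70 distinct symbols, because TRIM3 and TRIM46 each have 2 features. By name they fall into 30 finTRIM genes, 14 genes of the trim35 group and other numbered expansions, 9 bloodthirsty-related genes and 19 TRIM genes that share a number with a mammalian gene. The RefSeq annotation of a later zebrafish assembly lists 161 symbols of this kind, of which 59 were measured here, so the array covers part of the family.

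TRIM proteins carry a RING finger, B-boxes and a coiled coil, and most act as ubiquitin ligases that mark other proteins for degradation or signalling. Several mammalian members restrict viruses or tune the signals that switch on interferon, while others serve the cytoskeleton, muscle or chromatin. The finTRIM genes occur only in fish and were first found in trout leukocytes as genes induced by virus. They lie in clusters of similar genes, as the trim35 and bloodthirsty-related groups do, and clusters of this kind can differ in gene content and sequence between strains.

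RNA came from single midbrains of adult males, 1 year old, of the populations named Transgenic Mosaic 1 and Pargana in the labels, and each RNA was measured on a single-colour NimbleGen array. For 10 weeks the fish had eaten a deficient diet with 0.46 ppm selenium, a control diet with 1.7 ppm or a supplemented diet with 3.1 ppm, in each case as selenomethionine. Transgenic Mosaic 1 had 3 fish on each diet, 9 in all. Pargana had 3 deficient, 2 control and 3 supplemented fish, 8 in all, and the labels give no transgene or further genotype for either population. The study asked how midbrain expression differs between populations and with dietary selenium.

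Values are log2 signals made by the authors with RMA, 1 per gene and fish, so a difference of 1 unit is a doubling of signal. Array medians lay between 9.62 and 9.73 and single values between 3.48 and 15.49. Neuron markers, 10 genes, had a mean level of 13.27 to 13.39 in Transgenic Mosaic 1 fish and 13.30 to 13.47 in Pargana fish. Markers of some other tissues had wider ranges in the Pargana midbrains. The mean level of 19 skeletal muscle genes ran from 6.96 to 7.47 in Transgenic Mosaic 1 and from 7.31 to 8.80 in Pargana, with 6 of the 19 lower and 1 higher in Transgenic Mosaic 1. That of 8 pituitary genes ran from 6.04 to 6.54 in Transgenic Mosaic 1 and from 6.29 to 9.24 in Pargana, with 3 lower in Transgenic Mosaic 1. That of 8 eye and pineal genes ran from 6.37 to 7.85 in Transgenic Mosaic 1 and from 6.40 to 9.61 in Pargana, with 1 lower in Transgenic Mosaic 1. Markers of microglia and macrophages spanned 8.33 to 9.19 in Transgenic Mosaic 1 and 8.09 to 10.02 in Pargana, highest in Pargana control fish 1. Their part in the differences below was looked at only by leaving out the 5 Pargana fish with a high marker score, which also lowers the precision. Pargana deficient fish 3 has another population letter in its label code than the other Pargana fish, and it stands in the Pargana group by its other labels.

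Some limits apply throughout. Each p-value sets a difference against the spread between fish. The fit takes 1 spread per gene as equal in all 6 groups, although for some members, such as ftr51, it differed between the populations. A difference between populations in the sequence under a probe and a difference in RNA cannot be told apart in these values, and neither can fewer cells of a type and less RNA per cell. Probes for near-identical neighbours may read each other's RNA, so the values of single members of a cluster are uncertain to that degree; probe sequences were not used here.

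Averaged over the diets, 12 of the 72 members (16.7%) differed between the populations at an adjusted p under 0.05 in limma, against 13.3% of all features. They split evenly, with 6 members higher in Transgenic Mosaic 1 (8.33%, against 6.4% of all features) and 6 lower (8.33%, against 6.95% of all features). The higher ones were trim35-31, trim16, ftr57, ftr12, ftr24 and trim110. The lower ones were ftr51, trim35-4, ftr79, ftr02, ftr69 and btr16. The share called is thus near that of the whole array, while large differences made up a greater share: 7 of 72 members (9.72%) differed by more than 1 log2 unit, against 2.7% of all features. The median difference over the members, Transgenic Mosaic 1 minus Pargana, was -0.07, and that over all features was -0.01. The median size of the difference was 0.22 for the members and 0.15 for all features.

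**Figure D1:**
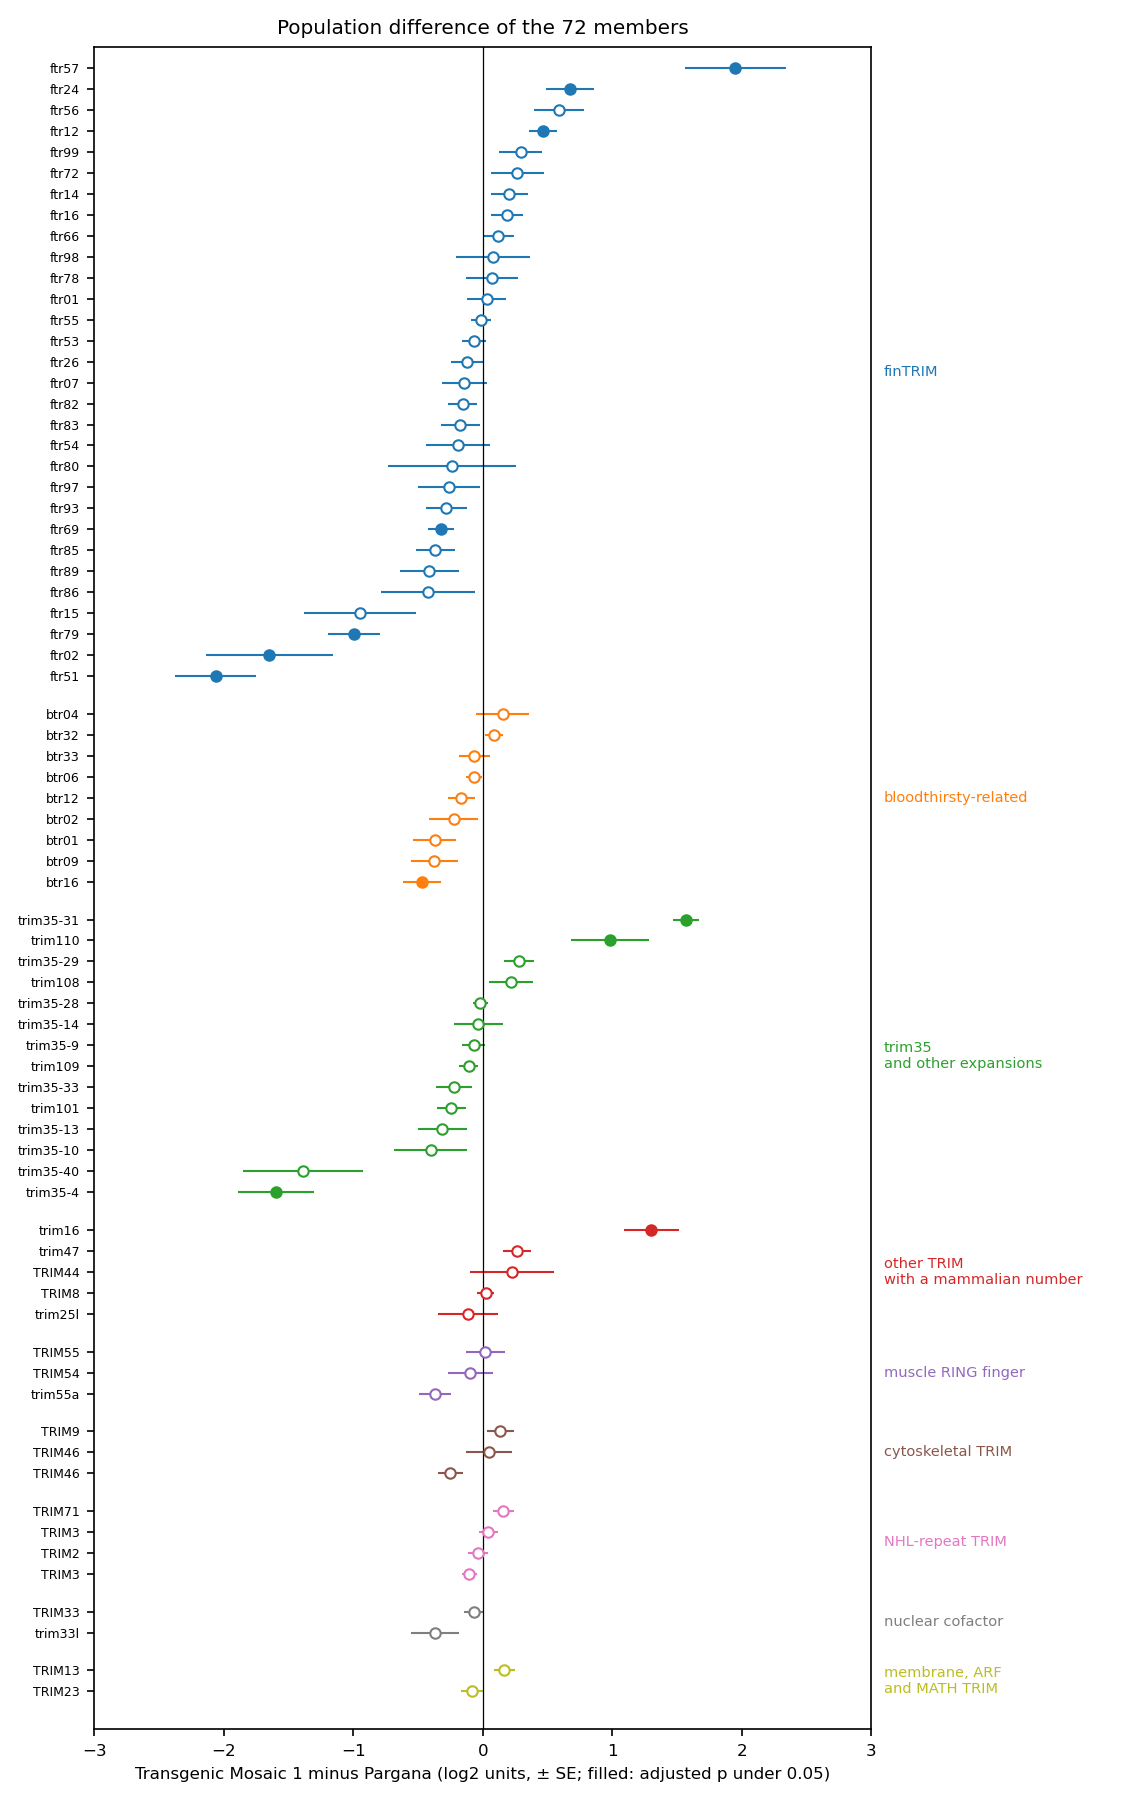
Difference in log2 signal between Transgenic Mosaic 1 (n = 9) and Pargana (n = 8) for each of the 72 members, averaged over the 3 diets, with bars of 1 standard error; filled points passed an adjusted p of 0.05 in limma, and colours and the labels at the right give the subgroups. The widest differences, from -2.06 for ftr51 to 1.95 for ftr57, lie among finTRIM and trim35 genes. None of the NHL-repeat, nuclear, cytoskeletal, membrane and muscle genes is filled, where 13.3% of all features passed.

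The trim35 genes are an expanded zebrafish group named for mammalian TRIM35, and trim35-31 had the smallest p of the family. Transgenic Mosaic 1 fish had 9.83, 9.51 and 10.02 on the deficient diet, 9.05, 8.49 and 8.93 on the control diet and 9.74, 9.51 and 9.44 on the supplemented diet. Pargana fish had 7.50, 7.53 and 7.69 on the deficient diet, 8.10 and 7.78 on the control diet and 7.91, 8.0 and 7.91 on the supplemented diet. Every Transgenic Mosaic 1 fish therefore lay above every Pargana fish. The difference averaged over the diets was 1.57 (SE 0.10, limma adjusted p = 5.30e-07).

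It was also called within each diet. The difference for trim35-31 was 2.21 (SE 0.16, limma adjusted p = 7.67e-06) among deficient fish, 0.88 (SE 0.18, limma adjusted p = 0.0382) among control fish and 1.62 (SE 0.16, limma adjusted p = 2.77e-04) among supplemented fish. The difference was smallest on the control diet, where the Transgenic Mosaic 1 fish had their lowest values and the Pargana fish did not. The test of whether the population difference varied with diet gave a limma adjusted p of 0.305 for trim35-31, so that the variation did not pass over all features. The call among control fish was lost in 8 of 17 fits that each left out 1 fish, those without either Pargana control fish among them, with differences between 0.72 and 1.05. The average over the diets stayed called in all 17 fits.

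A second member of the group, trim35-4, ran the other way. It had a lowest, median and highest value of 5.71, 5.89 and 6.56 in Transgenic Mosaic 1 fish, against 6.19, 7.90 and 8.40 in Pargana fish. The Transgenic Mosaic 1 values lay close together. The Pargana values fell into 5 fish between 7.75 and 8.40, drawn from all 3 diets, and 3 fish between 6.19 and 6.57, so that the ranges overlapped only through the lower Pargana fish. The difference was -1.60 (SE 0.29, limma adjusted p = 0.00327), and it was called in all 17 fits that left out 1 fish.

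The gene trim110, another numbered expansion, had a lowest, median and highest value of 8.75, 9.34 and 9.81 in Transgenic Mosaic 1 fish and of 7.08, 8.55 and 9.18 in Pargana fish. Pargana deficient fish 1 and control fish 1 were lowest, at 7.08 and 7.32. Pargana control fish 2, deficient fish 2 and supplemented fish 1, at 9.18, 9.16 and 8.91, lay within the Transgenic Mosaic 1 range. The difference of 0.98 (SE 0.30, limma adjusted p = 0.0463) was lost in 13 of 17 fits without 1 fish. Of these 14 genes 2 were thus higher and 1 was lower, against 6.4% and 6.95% of all features, and the other 11 did not pass. Among them, trim35-28 differed by -0.02 (SE 0.06, limma adjusted p = 0.874), with values of 13.35 to 13.62 in Transgenic Mosaic 1 and 13.33 to 13.64 in Pargana. Values of trim109 ran from 4.09 to 4.20 in Transgenic Mosaic 1 and from 3.98 to 4.55 in Pargana, with a difference of -0.11 (SE 0.07, limma adjusted p = 0.366). The gene trim35-29 differed by 0.28 (SE 0.11, limma adjusted p = 0.116). The largest difference that did not pass was that of trim35-40, -1.39 (SE 0.46, limma adjusted p = 0.0622).

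Among the finTRIM genes 7 of 30 were called, 3 higher and 4 lower in Transgenic Mosaic 1, where 13.3% of all features were called, 6.4% higher and 6.95% lower. The smallest p belonged to ftr51. Transgenic Mosaic 1 fish had 6.55, 7.12 and 6.25 on the deficient diet, 7.66, 8.64 and 6.98 on the control diet and 6.43, 8.74 and 8.64 on the supplemented diet. Pargana fish had 9.79, 9.16 and 9.60 on the deficient diet, 9.36 and 9.50 on the control diet and 9.39, 9.65 and 9.70 on the supplemented diet. Every Pargana fish lay above every Transgenic Mosaic 1 fish, and the SD over the fish was 1.01 in Transgenic Mosaic 1 and 0.21 in Pargana. The difference for ftr51 was -2.06 (SE 0.31, limma adjusted p = 8.95e-04).

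Within diets the ftr51 difference was called among deficient fish only, at -2.87 (SE 0.52, limma adjusted p = 0.0148), and that call was lost in 4 of 17 fits without 1 fish (adjusted p up to 0.0774). It was -1.67 (SE 0.58, limma adjusted p = 0.232) among control fish and -1.64 (SE 0.52, limma adjusted p = 0.0931) among supplemented fish, and ftr51 was not called in the test of whether the population difference varied with diet. Supplemented fish 1 of Transgenic Mosaic 1, at 6.43, stood with the deficient fish of its population rather than with its 2 diet mates.

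The counterpart was ftr57, which had a lowest, median and highest value of 7.60, 7.89 and 8.56 in Transgenic Mosaic 1 fish and of 4.28, 6.39 and 7.01 in Pargana fish. All Transgenic Mosaic 1 fish lay above all Pargana fish. Pargana deficient fish 2 and supplemented fish 3, at 4.28 and 4.36, stood 1.19 below the next Pargana fish. The difference was 1.95 (SE 0.39, limma adjusted p = 0.00569). Complete separation of this kind was seen for 2 members with Transgenic Mosaic 1 above Pargana, trim35-31 and ftr57, against 0.984% of all features, and for 1 member with Pargana above Transgenic Mosaic 1, ftr51, against 0.952% of all features.

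The other finTRIM genes past the threshold had overlapping populations. For ftr79, Transgenic Mosaic 1 fish had a lowest, median and highest value of 4.80, 4.94 and 6.11, against 5.72, 6.12 and 6.72 in Pargana fish, with 1 Transgenic Mosaic 1 fish, deficient fish 2, inside the Pargana range. Its difference was -1.0 (SE 0.20, limma adjusted p = 0.00529). For ftr12 the values were 6.71, 6.84 and 7.04 in Transgenic Mosaic 1 and 5.96, 6.41 and 6.75 in Pargana, a difference of 0.46 (SE 0.11, limma adjusted p = 0.0127). Pargana deficient fish 1, at 6.75, was the Pargana fish that reached the Transgenic Mosaic 1 range.

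For ftr24 the lowest, median and highest values were 7.96, 8.42 and 9.26 in Transgenic Mosaic 1 and 7.23, 7.81 and 8.18 in Pargana. The difference was 0.67 (SE 0.19, limma adjusted p = 0.0285). The smallest of these differences was that of ftr69, with 4.63, 4.82 and 4.99 in Transgenic Mosaic 1 and 4.54, 5.19 and 5.52 in Pargana and a difference of -0.32 (SE 0.10, limma adjusted p = 0.0472). Leaving out 1 fish at a time, ftr79, ftr12, ftr51 and ftr57 kept their calls in all 17 fits, while ftr24 lost its call in 7 and ftr69 in 14. A fit of population and diet without the 5 Pargana fish of high marker scores, both Pargana control fish among them, called 6 of the 12 members. Of Pargana it kept only deficient fish 1 and 3 and supplemented fish 2, so calls can be lost in it through lower precision alone. The differences of ftr79 and ftr02 in it stayed close to those with all fish. Those of ftr12, ftr24, ftr69 and btr16 were smaller than with all fish, for ftr24 0.39 against 0.67. With so few Pargana fish an estimate can also shift through the choice of fish, and the fit leaves out the interaction. Why these calls were lost was not tested. The share of all features called in this fit is not given here. The finTRIM calls lost in it were ftr12 (0.28, SE 0.12, limma adjusted p = 0.202), ftr79 (-1.04, SE 0.27, limma adjusted p = 0.0553), ftr24 (0.39), ftr69 (-0.26) and ftr02 (-1.60), and btr16 (-0.23) was lost as well.

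For ftr02 the call rested on 5 fish. Transgenic Mosaic 1 fish had a lowest, median and highest value of 5.52, 5.96 and 6.69. Pargana fish had 8.98, 6.13 and 5.72 on the deficient diet, 9.10 and 5.52 on the control diet and 8.55, 8.86 and 9.68 on the supplemented diet. Thus 5 Pargana fish, including all 3 on the supplemented diet, stood at 8.55 or above, and the other 3 Pargana fish lay between 5.52 and 6.13, where the Transgenic Mosaic 1 fish were. The difference of -1.65 (SE 0.49, limma adjusted p = 0.0408) was lost in 13 of 17 fits without 1 fish.

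**Figure D2:**
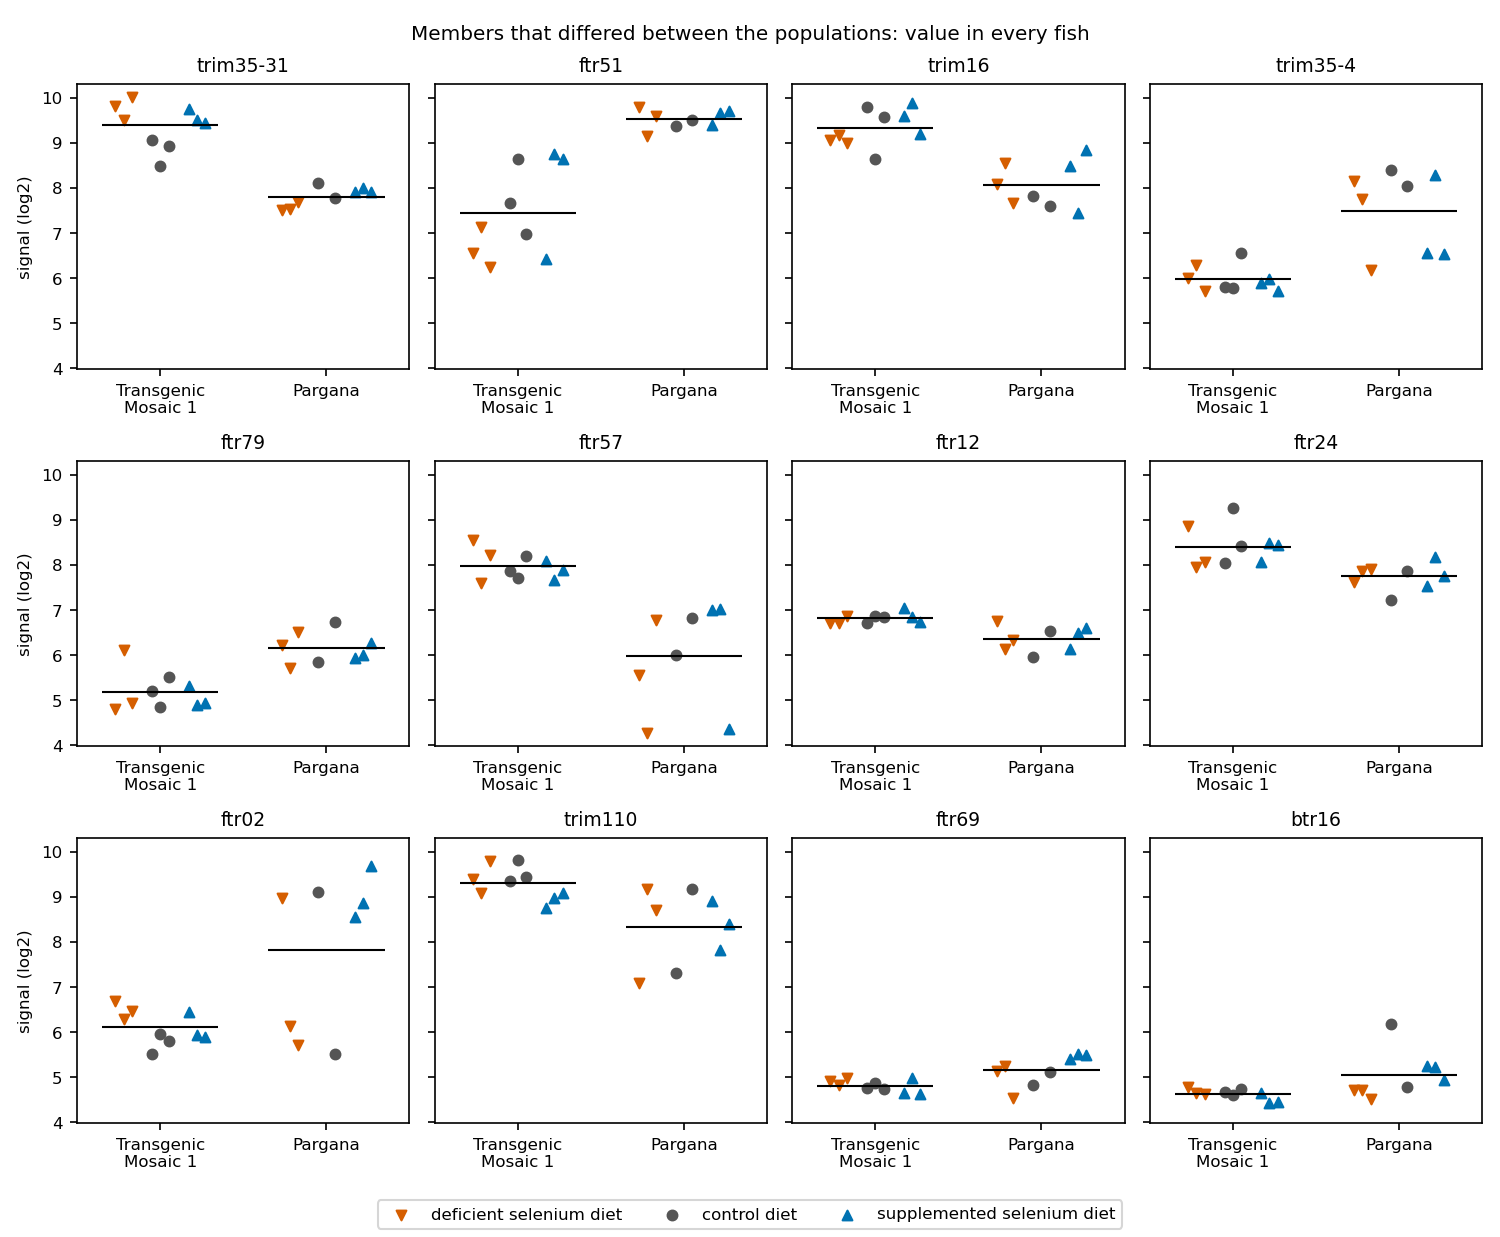
Log2 signal in every fish for the 12 members called between the populations, in order of p, with 9 Transgenic Mosaic 1 fish at the left and 8 Pargana fish at the right of each panel; symbols give the diet and the line is the mean over the fish of a population. The populations separate completely for trim35-31, ftr51 and ftr57, and in ftr02, ftr57 and trim35-4 the Pargana fish lie farther apart than the Transgenic Mosaic 1 fish.

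Among the finTRIM genes that did not pass, ftr56 came next, with a difference of 0.59 (SE 0.19, limma adjusted p = 0.0564). The pair ftr82 and ftr83 stand next to each other on the RefSeq gene order; ftr83 is known to raise interferon expression in fish cells. For ftr83 the values ran from 8.57 to 9.40 in Transgenic Mosaic 1 and from 8.66 to 9.97 in Pargana, and the difference was -0.17 (SE 0.15, limma adjusted p = 0.497). For ftr82 they ran from 8.89 to 9.73 in Transgenic Mosaic 1 and from 9.00 to 9.70 in Pargana, and the difference was -0.16 (SE 0.12, limma adjusted p = 0.402). The ranges of the populations overlapped along most of their length for both genes. Differences of the 23 finTRIM genes that did not pass lay between -0.95, for ftr15, and 0.59. Those of least spread were ftr55, with 3.95 to 4.56 in Transgenic Mosaic 1 and 3.88 to 4.44 in Pargana, and ftr53, with 4.37 to 4.88 in Transgenic Mosaic 1 and 4.21 to 4.88 in Pargana. These signals lie near the lowest value on any array, 3.48. The lowest values of the called members ftr57, 4.28, btr16, 4.44, ftr69, 4.54, and ftr79, 4.80, lie in the same region. So does that of trim35-40, 4.44, which was called on the supplemented diet. The gene ftr89 ran from 8.72 to 9.46 in Transgenic Mosaic 1 and from 8.57 to 10.72 in Pargana, highest in Pargana supplemented fish 1, with a difference of -0.41 (SE 0.23, limma adjusted p = 0.248).

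The bloodthirsty-related genes are named for a zebrafish gene needed to make red blood cells. Of the 9, 1 was called (against 13.3% of all features), btr16, lower in Transgenic Mosaic 1 by 0.47 log2 units. Its lowest, median and highest values were 4.44, 4.64 and 4.79 in Transgenic Mosaic 1 fish and 4.53, 4.86 and 6.19 in Pargana fish. The highest value was that of Pargana control fish 1, and the next Pargana fish had 5.26. Without Pargana control fish 1 the difference shrank to -0.24 and was no longer called (fitted difference -0.47, SE 0.15, limma adjusted p = 0.0495, with all fish), and the call was lost in 16 of 17 fits. Pargana control fish 1 also had the highest score of the microglia and macrophage markers, 1.31 against -0.61 to 0.13 in the other Pargana fish, and the part of these cells in its btr16 value was not tested.

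Within the supplemented diet btr01 was called as well. Transgenic Mosaic 1 supplemented fish had 6.02, 5.41 and 5.27, against 6.63, 6.84 and 7.16 in Pargana supplemented fish, and the groups did not overlap. How many features separate in this way on 1 diet was not counted. The difference for btr01 was -1.31 (SE 0.27, limma adjusted p = 0.0188), and the call was lost in 3 of 17 fits without 1 fish (adjusted p up to 0.0804). On the deficient diet Transgenic Mosaic 1 fish had 6.0, 6.08 and 6.18 and Pargana fish had 6.12, 6.41 and 5.30, and on the control diet Transgenic Mosaic 1 fish had 5.94, 6.61 and 5.93 and Pargana fish had 6.16 and 6.05. The populations overlapped on both of those diets. The test of whether the population difference varied with diet gave a limma adjusted p of 0.607 for btr01. The other 7 genes of the group passed in no comparison, and over the 8 without btr16 the difference averaged over the diets ran from -0.37 to 0.15. Among them btr12 had 6.86 to 7.61 in Transgenic Mosaic 1 and 7.12 to 7.73 in Pargana, and btr32 had 4.18 to 4.58 in Transgenic Mosaic 1 and 4.11 to 4.54 in Pargana.

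Of the TRIM genes that share a number with a mammalian gene, trim16 was called and the other 18 features were not. Over all features 13.3% were called, and that share also stands beside the counts of the smaller subgroups below. In mammals TRIM16 takes part in the autophagy of damaged lysosomes. The lowest, median and highest values of trim16 were 8.63, 9.20 and 9.88 in Transgenic Mosaic 1 fish and 7.45, 7.95 and 8.84 in Pargana fish. Pargana supplemented fish 3, at 8.84, was the 1 Pargana fish above the lowest Transgenic Mosaic 1 fish. The difference was 1.30 (SE 0.21, limma adjusted p = 0.00149), and it was called in all 17 fits without 1 fish. In the same subgroup, TRIM8, a regulator of cytokine signalling in mammals, was among the members of smallest spread, with 10.65 to 10.89 in Transgenic Mosaic 1 and 10.64 to 10.93 in Pargana. Its difference was 0.02 (SE 0.06, limma adjusted p = 0.857). The difference of trim47 was 0.26 (SE 0.11, limma adjusted p = 0.121). That of trim25l, named for the ligase that acts on the RNA sensor RIG-I in mammals, was -0.11 (SE 0.23, limma adjusted p = 0.799).

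Some members have known roles in neurons. For TRIM9, a ligase of nerve terminals and growing axons, values ran from 11.35 to 11.89 in Transgenic Mosaic 1 and from 11.10 to 11.80 in Pargana, with a difference of 0.14 (SE 0.10, limma adjusted p = 0.427). For TRIM2, which acts on neurofilaments in mouse neurons, they ran from 12.40 to 12.73 in Transgenic Mosaic 1 and from 12.23 to 12.86 in Pargana, with a difference of -0.04 (SE 0.08, limma adjusted p = 0.806). None of the 4 NHL-repeat features, TRIM2, 2 of TRIM3 and TRIM71, passed, and their differences lay between -0.11 and 0.16.

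TRIM46 bundles microtubules where the axon begins, and its 2 features, ENSDARG00000012367 and ENSDARG00000058649, differed by -0.25 (SE 0.10, limma adjusted p = 0.0979) and, for the second, by 0.05 (SE 0.18, limma adjusted p = 0.892). The first was called without Transgenic Mosaic 1 deficient fish 2 (-0.30, limma adjusted p = 0.0410). The 2 features of TRIM3, a brain-rich ligase also known from synapses, differed by 0.04 and -0.11. The features of a symbol thus did not share a sign in either gene, and no feature of them was called with all fish. The nuclear cofactor TRIM33, whose zebrafish form is needed for blood formation, differed by -0.07 (SE 0.08), and trim33l by -0.37 (SE 0.19). TRIM13, a ligase of the endoplasmic reticulum membrane, differed by 0.17 (SE 0.08) and TRIM23, which carries an ARF domain, by -0.08 (SE 0.08). Of these 4 genes none passed.

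The muscle RING finger genes TRIM54, TRIM55 and trim55a serve the sarcomere in muscle. None of the 3 was called between the populations, against 13.3% of all features. TRIM54 ran from 5.12 to 6.16 in Transgenic Mosaic 1 and from 5.30 to 6.18 in Pargana, with a difference of -0.10 (SE 0.17, limma adjusted p = 0.768). In Pargana the 4 fish of highest muscle score, supplemented fish 1, 3 and 2 and deficient fish 2 at 0.29 to 1.28, had TRIM54 values of 5.71 to 6.18. The other 4 Pargana fish, at -0.21 to 0.17, had 5.30 to 5.34, without overlap. Within the upper set the order ran the other way. Supplemented fish 1 and 3, at scores of 1.28 and 0.88, had 5.75 and 5.71, and deficient fish 2 and supplemented fish 2, at 0.50 and 0.29, had 6.14 and 6.18. All 3 Pargana supplemented fish are in the upper set, so muscle score and diet cannot be told apart in this split. Transgenic Mosaic 1 fish did not show higher TRIM54 at a higher muscle score. Supplemented fish 1, of highest muscle score there (-0.04), had 5.17, while deficient fish 1 (-0.12) had 6.03 and control fish 2 (-0.27) had 6.16. For trim55a the same 4 Pargana fish of highest muscle score had 6.40 to 6.99, and the other 4 had 6.15 to 6.70. For TRIM55 they had 5.68 to 6.28 and the other 4 had 5.16 to 6.11. Both genes thus overlapped where TRIM54 did not. The part of muscle in the levels of these genes was not tested. Between the populations trim55a differed by -0.37 (SE 0.12, limma adjusted p = 0.0591).

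When the populations were compared within each diet, few members passed. Among deficient fish 2 of 72 were called (against 1.44% of all features), trim35-31 and ftr51. Among control fish 1 was called (against 0.952% of all features), trim35-31. Among supplemented fish 4 were called (against 3.87% of all features), trim35-31, btr01, trim35-40 and ftr69. The ftr69 values on that diet were 4.64, 4.98 and 4.63 in Transgenic Mosaic 1 and 5.40, 5.52 and 5.49 in Pargana, with no overlap and a difference of -0.72 (SE 0.17, limma adjusted p = 0.0302). That call was lost in 5 of 17 fits without 1 fish and after quantile normalization again (limma adjusted p = 0.0507). How many features have no overlap on this diet was not counted.

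In some members 1 fish or a set of fish stood apart from the rest. Whether any of these genes is on in some fish and off in others was not tested. The 17 values of each feature were sorted and the widest step between neighbours was found, as a description with no test. A step of at least 2 log2 units occurred in 1 of 72 members (1.39%), near the 0.984% of all features. A step of at least 1 occurred in 6 members (8.33%), against 3.91% of all features. These 6 were trim35-40, ftr02, ftr15, trim35-10, ftr57 and trim35-4, all from the expanded groups.

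The widest step was that of trim35-40. Transgenic Mosaic 1 fish had 8.71, 8.45 and 9.87 on the deficient diet, 8.80, 8.84 and 8.28 on the control diet and 4.69, 4.44 and 8.54 on the supplemented diet. Pargana fish had a lowest, median and highest value of 8.75, 9.25 and 9.61. Supplemented fish 1 and 2 of Transgenic Mosaic 1 thus stood 3.59 below every other fish, and supplemented fish 3 lay among the rest. The difference between populations on the supplemented diet, -3.41 (SE 0.77, limma adjusted p = 0.0268), was lost without either of these fish, without any 1 of the 3 Pargana supplemented fish, and in a fit of only the groups compared (limma adjusted p = 0.134).

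In ftr15 Pargana control fish 1 and supplemented fish 3, at 7.61 and 7.48, stood 1.79 above the next fish. The other 6 Pargana fish lay between 4.01 and 5.69 and the Transgenic Mosaic 1 fish between 4.42 and 5.09. Its neighbour on the RefSeq gene order, ftr14, showed no such step, and those same Pargana fish had its lowest Pargana values, 5.21 and 5.12. In trim35-10 Pargana control fish 1 alone, at 10.27, lay above the other fish, which ran from 6.93 to 8.86. The neighbour of this gene, trim35-9, ran from 4.69 to 5.20 in all fish. Pargana control fish 1 also had the highest microglia and macrophage score, 1.31. The part of these cells in its ftr15 and trim35-10 values was not tested.

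The fish that stood apart were not the same from gene to gene. Pargana supplemented fish 3 was in the upper set for ftr02 and ftr15 and in the lower set for ftr57 and trim35-4. Pargana control fish 1 was in the upper set for ftr02, ftr15, trim35-10 and trim35-4. Pargana deficient fish 2 was in the upper set for trim35-4 and the lower set for ftr02, ftr15 and ftr57. Apart from trim35-40, the fish that set these steps were from Pargana.

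**Figure D3:**
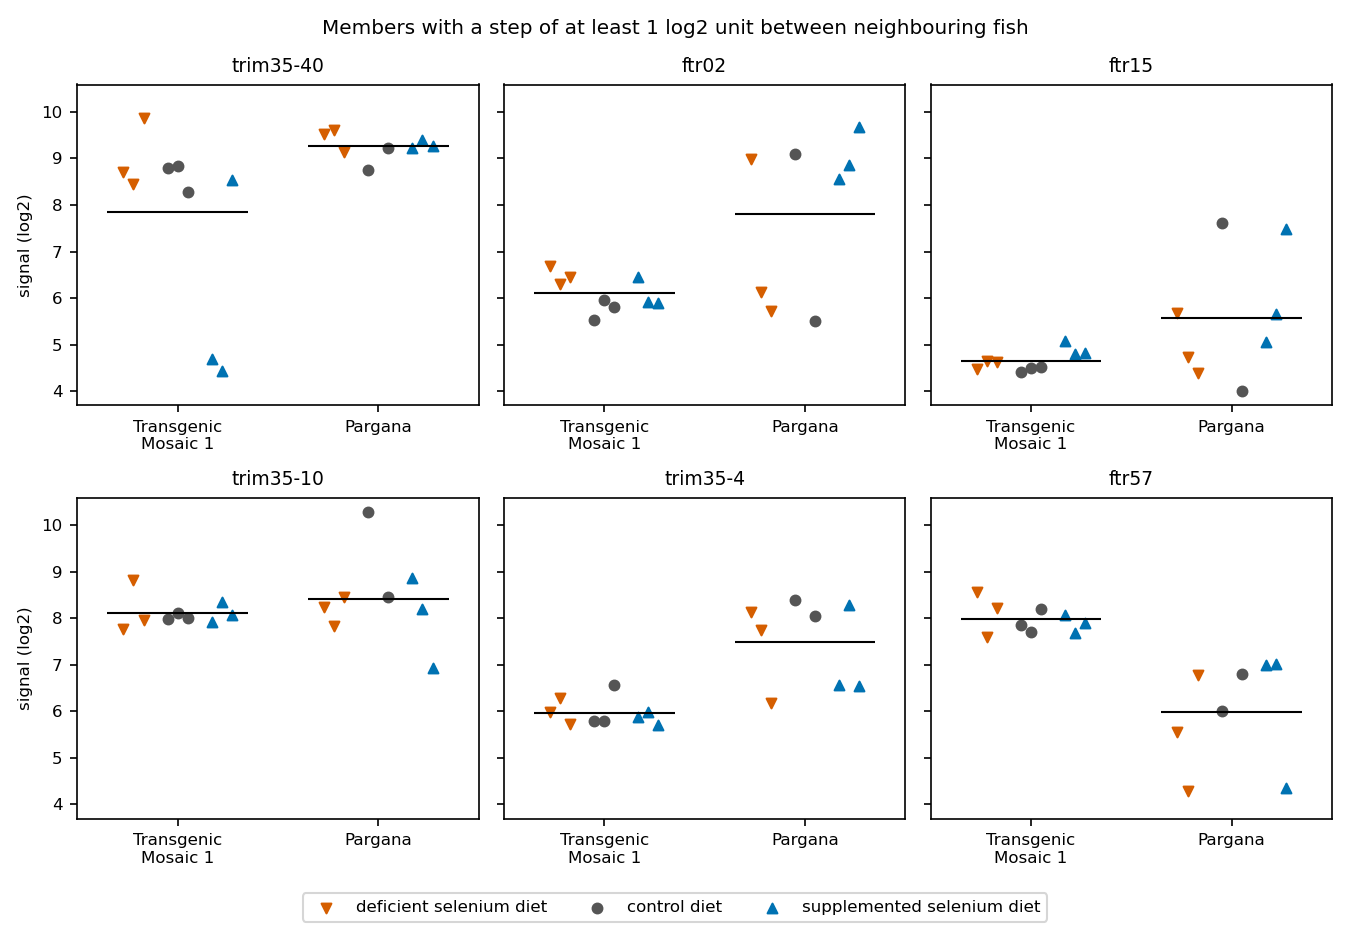
Log2 signal in every fish for the 6 members with a step of at least 1 log2 unit between neighbouring fish, with 9 Transgenic Mosaic 1 fish left and 8 Pargana fish right in each panel, symbols for the diet and a line at the mean of each population. In trim35-40 the low values are 2 Transgenic Mosaic 1 supplemented fish, and in the other 5 panels the set that stands apart holds Pargana fish.

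A wide spread within Pargana was found in a greater share of members than of all features, while within Transgenic Mosaic 1 the 2 shares were closer. A range of at least 2 log2 units within Transgenic Mosaic 1 was found for 4 members (5.56%), against 3.73% of all features. Within Pargana it was found for 10 members (13.9%), against 5.46% of all features. The 4 were trim35-40, ftr80, TRIM44 and ftr51. The 10 were ftr02, ftr15, ftr80, trim35-10, ftr57, ftr86, TRIM44, trim35-4, ftr89 and trim110, so that ftr80 and TRIM44 were in both sets. For ftr80 the values ran from 4.72 to 8.20 in Transgenic Mosaic 1 and from 4.43 to 8.02 in Pargana, spread over the range in both populations, and the populations differed by -0.24 (SE 0.50, limma adjusted p = 0.8). For TRIM44, a TRIM protein without a RING finger, they ran from 5.27 to 8.08 in Transgenic Mosaic 1 and from 5.96 to 8.26 in Pargana, with a difference of 0.22 (SE 0.33, limma adjusted p = 0.701).

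**Figure D4:**
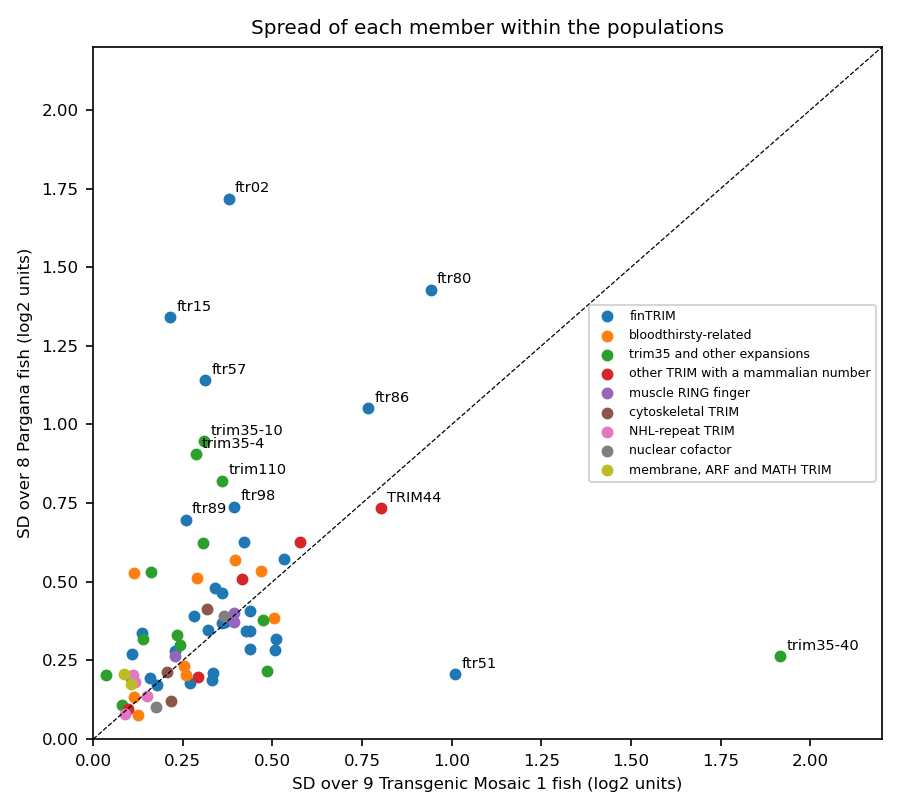
SD of each of the 72 members over 9 Transgenic Mosaic 1 fish (x axis) and over 8 Pargana fish (y axis), in log2 units, with colours for the subgroups and a dashed line where both are equal. The members farthest above the line, ftr02 and ftr15, vary among Pargana fish, and those farthest below it, trim35-40 and ftr51, vary among Transgenic Mosaic 1 fish.

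The spread over fish was set beside subgroup and signal, with no test. Of the 72 members, 16 were among the 1565 features of largest SD over the 17 fish: 8 of the 30 finTRIM genes, 5 of the 14 trim35 and other expansions, and 3 of the 5 features in the subgroup of trim16, trim25l, TRIM44, trim47 and TRIM8. None of the 9 bloodthirsty-related genes was among them, although the median SD was 0.42 for the bloodthirsty-related genes, 0.42 for the finTRIM genes and 0.41 for the trim35 and other expansions. The median SD of the 12 members with a mean of 10 or more was 0.15, against 0.19 for all features in that class, and 0 of these 12 were called between the populations, against 9.81% of all features there. Among the 21 members with a mean from 7 to under 10 the median SD was 0.56, against 0.32 for all features in that class, and 6 (28.6%) were called, against 19.4% of all features there. In the lowest class, 39 members with a mean under 7, the median SD was 0.39, against 0.34, and 6 (15.4%) were called, against 12.4%. These classes bear on precision only, since the signal of different probes is not a measure of which gene has more RNA.

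Selenium intake was then compared within each population. None of the 72 members passed in any of the 6 diet comparisons in limma. Within Transgenic Mosaic 1, 0 members passed for deficient against control (0.0256% of all features did), 0 for supplemented against control (0.0831% of all features) and 0 for supplemented against deficient (0.00639% of all features). Within Pargana, 0 passed for deficient against control (0.0383% of all features), 0 for supplemented against control (0.032% of all features) and 0 for supplemented against deficient (0% of all features). At an unadjusted p under 0.05 there were, within Transgenic Mosaic 1 in the same order, 3 (4.17%), 7 (9.72%) and 3 (4.17%) of the 72, against 4.67%, 5.76% and 3.34% of all features. Within Pargana there were 4 (5.56%), 9 (12.5%) and 11 (15.3%), against 7.05%, 6.01% and 6.51% of all features. With 2 or 3 fish a group these comparisons have less precision than that of the populations.

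Within Transgenic Mosaic 1 the smallest unadjusted p of the family belonged to trim35-31 in both comparisons with the control diet. Its mean was 9.78 ± 0.26 on the deficient diet, 8.82 ± 0.30 on the control diet and 9.56 ± 0.16 on the supplemented diet (SD, n = 3 each). Every deficient and every supplemented fish lay above the 3 control fish. Such separation from control was seen upward in 5 members and downward in 1 for the deficient diet. For the supplemented diet it was seen upward in 3 and downward in 6, and the share of all features was not counted. The deficient diet differed from control by 0.96 (SE 0.16, limma adjusted p = 0.142), while the supplemented diet differed from it by 0.74 (SE 0.16, limma adjusted p = 0.213). These 2 comparisons share the control fish. In Pargana the means were 7.57 ± 0.10 (SD, n = 3) on the deficient diet, 7.94 ± 0.23 (SD, n = 2) on the control diet and 7.94 ± 0.05 (SD, n = 3) on the supplemented diet, so that the deficient group was lowest there.

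Supplemented against control Transgenic Mosaic 1 fish also had small unadjusted p for trim35-40, -2.75 (SE 0.77, limma adjusted p = 0.426), for ftr01, -0.77 (SE 0.25, limma adjusted p = 0.603), and for ftr86, 1.67 (SE 0.60, limma adjusted p = 0.679). The ftr86 values were 8.82, 8.47 and 8.59 in supplemented fish, against 6.91, 6.85 and 7.11 in control fish, with no overlap. In this comparison 3 members lay wholly above the control fish and 6 wholly below, and the share of all features was not counted. Deficient Transgenic Mosaic 1 fish had 7.80, 7.12 and 7.88 for ftr86, between the supplemented and control fish. In Pargana ftr86 was 7.45, 7.66 and 10.02 on the deficient diet, 7.41 and 7.94 on the control diet and 7.89, 9.74 and 7.55 on the supplemented diet, with 1 high fish on each of the deficient and supplemented diets.

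In Pargana the smallest unadjusted p for the supplemented against the control diet was that of trim108, a numbered expansion. It had 6.30, 6.77 and 7.15 in supplemented fish, against 5.57 and 5.58 in control fish, without overlap. In this comparison 10 members had every supplemented fish above every control fish, and 4 had every one below. Groups this small often separate by chance, and the share of all features was not counted. The difference was 1.16 (SE 0.31, limma adjusted p = 0.338). Deficient Pargana fish had 5.49, 6.49 and 5.85. In Transgenic Mosaic 1 the values of trim108 were 6.21, 6.29 and 5.88 on the deficient diet, 6.07, 6.21 and 6.92 on the control diet and 6.54, 6.49 and 6.13 on the supplemented diet, and these overlapped.

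Other members led their comparison without passing. For deficient against control Pargana fish these were btr16, -0.84 (SE 0.27, limma adjusted p = 0.525), trim35-29, 0.58 (SE 0.21), ftr99, -0.82 (SE 0.31), and trim35-10, -1.19 (SE 0.53). The differences of btr16 and trim35-10 turn on Pargana control fish 1, whose values of 6.19 and 10.27 were the highest of all fish. For supplemented against deficient Pargana fish they were btr01, 0.94 (SE 0.27, limma adjusted p = 0.535), ftr69, 0.49 (SE 0.17), trim108, 0.80 (SE 0.28), and ftr02, 2.09 (SE 0.82). For supplemented against deficient Transgenic Mosaic 1 fish trim35-40 led, at -3.13 (SE 0.77, limma adjusted p = 1.00), followed by ftr51, 1.30 (SE 0.52), and ftr55, -0.31 (SE 0.13).

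The interaction of population and diet asks whether the diets moved a gene differently in the 2 populations. No member passed in limma, where 0.0383% of all features did, and 10 of 72 (13.9%) had an unadjusted p under 0.05, against 5.63% of all features. The smallest were trim35-31 (adjusted p = 0.305 in limma), btr01 (0.607), ftr01 (0.638) and TRIM55 (0.795).

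**Figure D5:**
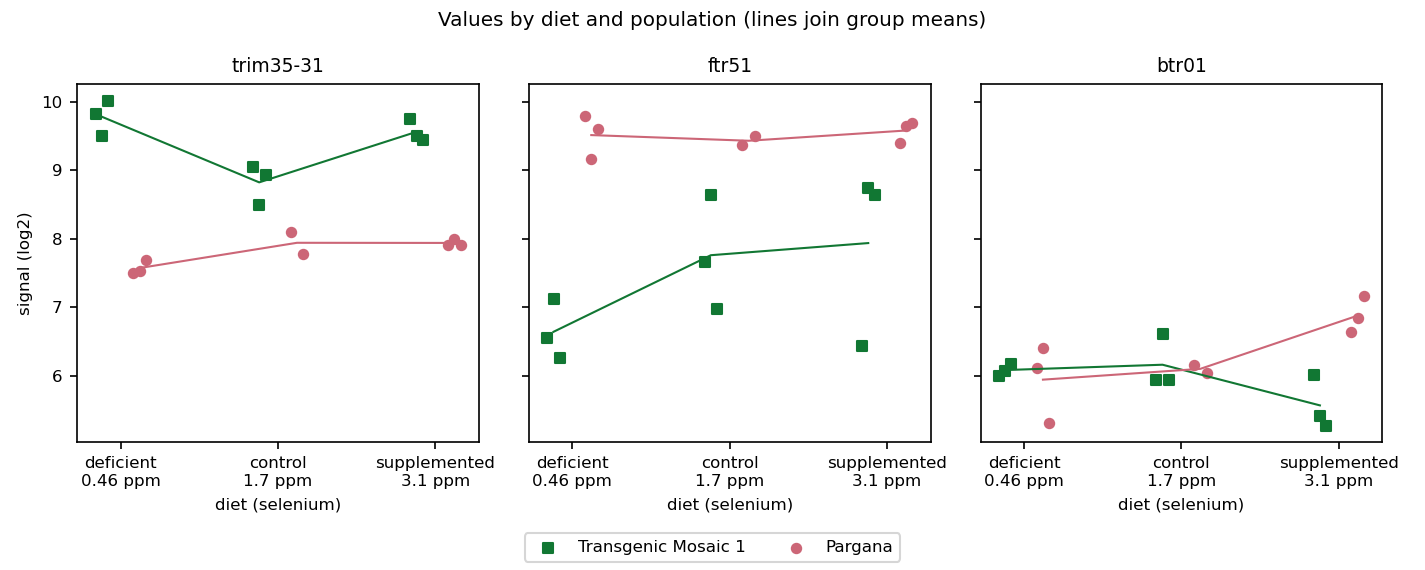
Log2 signal of trim35-31, ftr51 and btr01 in every fish by diet (selenium in ppm), with squares for Transgenic Mosaic 1 and circles for Pargana and lines between the group means (3 fish a group, 2 for Pargana control). The populations stay apart on every diet for trim35-31 and ftr51, and for btr01 they part on the supplemented diet alone in this plot; its interaction did not pass.

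Pathways in which TRIM proteins act were read from lists of genes, whose counts stand against 6.4% of all features higher and 6.95% lower in Transgenic Mosaic 1. RIG-I-like receptor signalling senses viral RNA, and some TRIM proteins ubiquitinate its parts. Of its 10 measured genes 1 was higher in Transgenic Mosaic 1 and 0 were lower, with a median difference of 0.02. The 1 was IFIH1, the sensor of long viral RNA, which ran from 8.39 to 9.81 in Transgenic Mosaic 1 and from 6.43 to 7.97 in Pargana, with no overlap and a difference of 1.56 (SE 0.21, limma adjusted p = 4.39e-04). Of 20 interferon response genes 1 was higher and 0 were lower, with a median difference of 0.16. The 1 was RSAD2, an antiviral enzyme, which ran from 5.86 to 7.15 in Transgenic Mosaic 1 and from 4.81 to 5.82 in Pargana, with a difference of 0.78 (SE 0.18, limma adjusted p = 0.0110).

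RING fingers work with ubiquitin-conjugating enzymes. Of 20 such enzymes and their activators 3 were higher and 1 lower in Transgenic Mosaic 1, with a median difference of 0.06. The higher ones were UBE2G1 (2.83, SE 0.19), UBE2G2 (0.57, SE 0.09) and UBE2H (0.19, SE 0.05), and the lower one was UBE2J1 (-0.61, SE 0.15). UBE2G1 had 12.32 to 12.86 in Transgenic Mosaic 1 fish, while Pargana control fish had 5.32 and 5.80 and the other Pargana fish 11.56 to 13.26. The size of its difference therefore rests on the 2 Pargana control fish.

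Transgenic Mosaic 1 supplemented fish 1 had the highest interferon response score of the 17 fish, 0.95, where the score is the mean over the list of each gene's value minus its mean over all fish. The next was 0.55, in Transgenic Mosaic 1 deficient fish 2. Within its population supplemented fish 1 had the highest value of 17 of the 72 members and of 10 of the 30 finTRIM genes. Among these were ftr72, at 9.05 against 7.27 to 7.97 in the other Transgenic Mosaic 1 fish, and ftr07, at 6.48 against 5.04 to 5.47. Deficient fish 2 had the highest value of 8 members, 6 of them finTRIM genes. Transgenic Mosaic 1 control fish 2, with the lowest interferon score of its population, -0.28, had the highest value of 15 members, 5 of them finTRIM genes, so the count over all members did not follow the score. Among Pargana fish, supplemented fish 2, at a score of -0.13, had the highest value of 7 finTRIM genes, more than any other. Pargana control fish 1 and supplemented fish 1, of the highest scores there, 0.295 and 0.285, had 5 each. The share of all features highest in each fish was not set beside these counts. Transgenic Mosaic 1 supplemented fish 1 also had the antiviral gene mxe at 7.74, against 4.09 to 4.62 in the other Transgenic Mosaic 1 fish.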

How the data were processed

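The deposited values are log2 signals, 1 per Ensembl gene and fish, which the authors made with RMA on the Zv9 build, per the submitters' processing notes. RMA corrects for background, normalizes between arrays and summarises the probes of a gene. No version is given in the sources used here. The values entered the tests as deposited, with no filter. Of 15649 features, 1 names no gene and was left out, and 13251 of the others carry a symbol. Members and lists were chosen with earlier results of these data known.

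A mean for each of the 6 groups was fitted to all 17 arrays with limma 3.58.1 in R 4.3.3, with variances moderated by empirical Bayes (residual degrees of freedom 11, prior 2.84). Tests were two-sided, and p-values took the Benjamini-Hochberg adjustment over the 15648 features of a comparison, at a threshold of 0.05. The populations were compared over all diets and within each, diets in 6 pairs within the populations, and the interaction by a moderated F test. Replicate numbers follow accession order and pair nothing. The labels name neither slide nor scan date, so batches could not be looked for.

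Named members were those past the threshold in any comparison, those whose populations did not overlap, those with a step of at least 2 log2 units between fish, the leading 3 of a subgroup by mean, small SD or difference, and up to 4 of smallest p in each diet comparison and the interaction. Of the pathway lists the genes past the threshold for the population difference were named. Steps of 1 unit, ranges within a population, neighbours, mxe, the split of Pargana fish by muscle score and single fish were described after their values were seen. RefSeq genes of assembly GRCz12tu matched 61 members and gave only gene order and the count of family symbols. A list score is the mean of values centred per gene.

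In simulated data with 15648 genes the population test recovered 59.7% of the genes shifted by 0.5 log2 units, 92.5% of those shifted by 1 and 98.5% of those shifted by 2, with 13 false calls. The simulated noise was normal and independent between genes, and only a small set of genes was shifted, alike on all diets. These rates therefore do not carry over to members with steps between fish. As alternatives the arrays were quantile-normalized once more or centred on their medians, features in the lowest quartile were dropped, a symbol was held to 1 feature, variances were moderated with a trend or robustly, and arrays were weighted. The interaction was also left out, fits were limited to the groups compared, other step sizes were used and each array was omitted in turn. A fit without 5 fish of high marker scores was added after the data were seen. Python 3.11.15 with pandas 2.3.3 and numpy 2.4.6 made the tables, and matplotlib 3.10.9 the figures.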

Additional observations from a re-analysis of the deposited data

Results flagged for a closer look

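In 10 of 144 tests (72 members in each population) the highest or lowest fish stood farther from its nearest neighbour than Dixon's 95% limit for the number of fish; chance gives about 1 in 20. Transgenic Mosaic 1 supplemented fish 1 accounted for 3 of them, ftr07 at 6.48, ftr12 at 7.04 and ftr72 at 9.05, each the highest of 9 fish, where the next were 5.47, 6.87 and 7.97. Transgenic Mosaic 1 control fish 2 was highest for ftr53, at 4.88, and for the TRIM3 feature ENSDARG00000063711, at 13.80. Control fish 3 of that population was highest for ftr01, at 7.58, deficient fish 1 for ftr55, at 4.56, and supplemented fish 3 for TRIM23, at 11.29. TRIM44 was lowest in Transgenic Mosaic 1 deficient fish 3, at 5.27, where the next fish had 7.15. In Pargana btr16 was highest in control fish 1, at 6.19, where the next fish had 5.26.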

How the results depend on the processing

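The sign of a difference was checked only for members called in a comparison or among the 4 of smallest p in a diet comparison. None of these signs reversed under any alternative. Other differences, many of them small, were not checked, and the interaction has no sign here. Calls were counted only for a member in a comparison that selected it, the interaction included. Over the alternatives these calls stayed the same 1047 times, were lost 106 times and were gained 4 times. Calls gained in other comparisons are not in that count, such as trim16 among control fish and ftr02 among supplemented fish in some fits. Counts of members were classed as moved 41 times and as the same 299 times. The 12 members called between the populations became 5 with the lowest quartile of mean left out. That quartile holds 40 of the 72 members, which were not tested in that fit. The called members ftr57, ftr02, trim35-4, ftr12, ftr79, ftr69 and btr16 are among them, so these were removed from the fit and did not fail in it. Without the 5 Pargana fish of high marker scores, a fit of lower precision, the 12 became 6. Those 6 were trim35-31, ftr51, trim16, trim35-4, ftr57 and trim110. Under the other alternatives that kept all fish the count was 11 or 12. The members behind that count changed: ftr69 and btr16 lost their calls in some of these fits, and ftr56, trim35-40 or trim55a were called in some. The counts in this section are of members alone. The share of all features called in the same fits is not given here, so a change in the family cannot be told from one over the whole array. Leaving out 1 fish gave 7 to 13, with 7 without Pargana deficient fish 1, Pargana supplemented fish 3 or Transgenic Mosaic 1 deficient fish 1, and 13 without Pargana deficient fish 3, the one with the differing code letter. Within diets, leaving out 1 fish gave 1 to 3 members for deficient, 0 to 3 for control and 2 to 6 for supplemented fish. The 1 member called among control fish became 0 with a trended variance, with array weights and in a fit of only the groups compared. The 4 called among supplemented fish became 2 with the lowest quartile left out and 7 with array weights. The diet comparisons and the interaction gave 0 or 1 without 1 fish (supplemented against deficient Pargana fish 0 to 0). The calls gained there were btr16 in Pargana, -1.54 for deficient and -1.04 for supplemented against control without Pargana control fish 2, which leaves control fish 1 as the only control, with its interaction (adjusted p = 0.00653), trim35-31 for deficient against control Transgenic Mosaic 1 fish, 1.1 without deficient fish 2, and trim35-40, -4.08 and -4.45 for supplemented against control and deficient Transgenic Mosaic 1 fish without supplemented fish 3, with its interaction (adjusted p = 0.00148 in limma). Steps of 2 log2 units were found in 1 to 2 members without 1 fish, and steps of 1 in 6. Members with every Transgenic Mosaic 1 fish above every Pargana fish numbered 2 to 3 without 1 fish and 1 with the lowest quartile left out, and those with every Pargana fish above every Transgenic Mosaic 1 fish 1 to 2. Apart from the constructions named, the cause was not tested. No paired analysis was possible because the replicate numbers follow accession order. The 2 or 3 arrays a group limit the precision.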
